A study of Mus musculus with 8 samples.

Results

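The X-linked genes of undifferentiated hybrid mouse embryonic stem cells were compared by parental allele, as reads given to the 129 genome against reads given to the CAST genome. The members are the X-linked genes with at least 50 allele-assigned reads summed over the 4 libraries taken before differentiation (day 0). They number 405 of the 1059 X-linked genes in the table, which holds 24421 genes. The choice used the sum of both alleles and not their balance, although a gene could reach the minimum through 1 allele alone. The 6 genes with 50 to 54 reads had 129 shares from 25.5% to 96.1%, and the 10 genes with 45 to 49 reads, just outside, from 20% to 97.8%.

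The cells are mouse embryonic stem cells of a hybrid between CAST/Ei, a strain of the wild-derived castaneus subspecies, and 129/Sv/Jae, a laboratory strain. At day 0 there were 2 wild type (WT) libraries and 2 libraries of cells with the HNRNPK 6A mutation, both grown with leukemia inhibitory factor on irradiated embryonic fibroblast feeders that were taken away before harvest. The same genotypes were sequenced at day 14 of differentiation without the factor, again with 2 libraries each, and are used here only for values set beside those of day 0. Libraries were made from total RNA depleted of ribosomal RNA and read as 150-base pairs, and the protocol calls the 2 libraries of a group biological replicates. The sources used here do not say what 6A substitutes, which sex the cells have, how many clones were used, which strain the feeders came from or how reads were assigned to alleles.

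In female mammals, X-linked dosage is balanced by silencing an X chromosome in each cell, through the long non-coding RNA Xist, which coats the chromosome it is made from. Tsix, its antisense RNA, holds Xist down in cis in undifferentiated cells. Female embryonic stem cells have not yet made this choice and use both X chromosomes, so the reads of each parental allele show how strongly each copy of a gene is used before silencing starts. In a hybrid, both alleles of a gene share the same nucleus, and unequal use of them there is known as a cis difference between the strains.

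The day 0 libraries held 8618779 and 15269189 counts (WT) and 12425526 and 15540163 counts (6A), of which 29.1% to 31.6% had an allele. Over the 405 genes, a median of 26.7% of a gene's reads had an allele, from 0.54% to 94.8%. All 15 pluripotency markers were detected in every day 0 library, with summed levels of 6636 to 6913 CPM (counts scaled to the library's total count), against 806 to 1093 CPM at day 14. Fibroblast and mesenchyme markers outside the X chromosome (35 of 35 detected) summed to 6244 and 6929 CPM for WT and 8414 and 7859 for 6A. Y-linked genes, 7 in the table, of which 3 were at 0 in every day 0 library, summed to 26.6 and 26.1 CPM for WT and 40.9 and 45.2 for 6A at day 0. In differentiated cells the same sum was 0 in 3 libraries and 0.101 CPM, 1 count, in the other. Macrophage markers (10.9 to 15.8 CPM) and endothelial markers (46.8 to 56.4 CPM) were low at day 0, and 1 endothelial marker was at 0.

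Both X chromosomes were read at nearly equal strength before differentiation. Of all allele-assigned reads of the 405 genes, 54.2% and 53.4% were 129 in WT replicates 1 and 2 and 55.4% and 55.8% in 6A replicates 1 and 2 (mean 54.7% ± 1.13, SD, n = 4). These shares rest on 81975 to 157528 reads per library, with Wilson 95% intervals no wider than 53.8% to 54.5%, which cover counting error only. The median over genes lay closer to 50%, at 50.9%, 51.4%, 53.5% and 54.5% in the same order. Every library was above 50% by both summaries, but the difference of 4.69 points from 50% had an exact permutation p of 0.125 (two-sided sign flips over 4 libraries), the smallest that this design allows. These are values of whole cultures, so they do not tell whether each cell read both chromosomes.

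The other chromosomes give the scale for that balance. On most autosomes most genes were read mainly as 129, with medians over genes from 92.3% (chromosome 2) to 98.9% (chromosome 10). Chromosomes 2 and 11 were mixed, with lower quartiles of 60.8% and 59.3%. Only chromosomes 5, 7, 8, 9 and 13 had medians near the X, from 54.7% to 60.6%, against 53.0% for the X. The genes of chromosome 8 were widely spread, with quartiles of 36.8% and 98.4%. Chromosome 13, with 454 genes and the lowest median, was chosen as the comparison after these values were seen. Its pooled shares were 54.4%, 54.5%, 55.7% and 56.1% in the same library order, and its medians over genes 55.3%, 55.1%, 56.3% and 55.9%. The X stood 0.49 points lower by pooled reads and 3.08 points lower by medians, lower in all 4 libraries each time, with an exact permutation p of 0.125 that again is the smallest possible. At day 14 chromosome 13 stood at 51.1% in each library, while the X stood at 18.3% and 18.8% in WT and 20.2% and 20.4% in 6A.

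Most X-linked genes were close to balance, and both tails were populated. Over the 4 libraries pooled, 238 of the 405 genes (58.8%) had a 129 share of 40% to 60%, against 234 of 454 (51.5%) on chromosome 13. The quartiles of the X were 47.1% and 61.8%. At the 129 end, 20 genes had at least 90% and a further 16 had 80% to 90%. At the CAST end, 5 genes were under 10% and 4 between 10% and 20%. No gene was without a read of either allele.

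**Figure D1:**
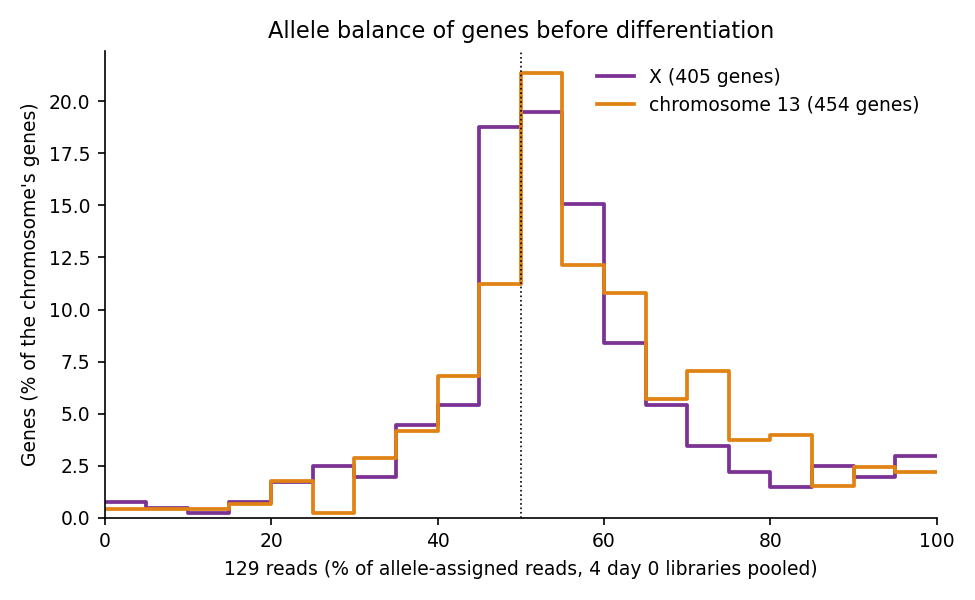
Share of genes (%, vertical axis) in each 5-point class of the 129 share (%, horizontal axis, 4 day 0 libraries pooled) for 405 X-linked genes and 454 genes of chromosome 13. Both distributions peak next to 50%, marked by the dotted line, and the X has more of its genes between 40% and 60% (58.8% against 51.5%).

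A gene was called unequal where edgeR's quasi-likelihood test of the 129 to CAST ratio, fitted over all 11604 genes with at least 50 allele reads, gave a Benjamini-Hochberg adjusted p under 0.05. Of the 405 X-linked genes 199 were called, 138 with more 129 reads and 61 with more CAST reads. That is 49.1% of them (34.1% and 15.1%), against 85.7% called over all genes tested (78.5% with more 129 reads and 7.22% with more CAST reads) and 61.7% on chromosome 13 (46.9% and 14.8%). The all-gene shares include the many autosomes on which most genes were read mainly as 129. Whether a CAST copy of those genes was present was not tested. The balance of directions depended on the zero point. With the median of chromosome 13 set to equal in each library, which lowered the median log2 ratio of the X-linked genes by 0.32, 90 were called for 129 and 148 for CAST, or 37.8% for 129 against 69.3% with the reads as they stand. All 61 CAST calls and 90 of the 138 calls for 129 were kept under that zero point, so small excesses of 129 reads should be read against it. Among genes named for their function, Ddx3x, Dkc1, Dusp9, Kdm6a, Plp2, Scml2, Usp26, Tex11 and Xlr3c were not called with the reads as they stand and were called for CAST under it. For the gene lists, 34.1% and 15.1% are the shares against which each count stands. DESeq2 on the same design called 78 and 26, all of them shared with edgeR.

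Differences in size put the calls in order. A ratio beyond 2-fold (absolute log2 over 1) was called for 69 X-linked genes with more 129 and 32 with more CAST reads (24.9% together). The shares were 30.4% on chromosome 13 and 73.7% over all genes, which again include the autosomes read mainly as 129. Of the 138 genes called for 129, 129 were above 50% in each of the 4 libraries, and of the 61 called for CAST, 55 were below 50% in each. Of the 206 genes not called, 182 lay between 40% and 60%. By depth, the share called was 45.1% of 113 genes with 50 to 200 reads, 52.0% of 173 genes with 200 to 1000 and 48.7% of 119 genes with 1000 or more. The median absolute log2 ratio fell over the same classes from 0.80 to 0.19. Replicates of a gene with at least 500 reads (200 genes) differed by a median of 3.76 points in WT and 2.49 points in 6A. Counting error alone gave a median standard error of the difference of 4.40 and 3.61 points. A median absolute difference and a standard error are unlike measures and were not put on the same scale here. Whether replicates differed beyond counting error was not tested.

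The X inactivation center, the region that holds Xist and its regulators, contained both kinds of imbalance. Of its 9 measured genes 4 were called for 129, 2 for CAST and 3 were not called, with a median of 53.5%. Xist (mm10, X chromosome, 103460366 to 103483254, minus strand, a long non-coding RNA) was read almost only from the 129 allele. Its 129 share was 94.4% and 99.0% in WT and 97.3% and 97.5% in 6A, from 1046 allele reads in all (log2 ratio 5.15 ± 0.21, SE, edgeR adjusted p = 8.03e-134). All reads of Xist came to 68.7 and 53.6 CPM for WT and 51.4 and 62.3 for 6A at day 0. Xist reached between 953 and 1257 CPM at day 14, where the 129 share was 97.6% from 15112 allele reads. The few Xist reads of the day 0 libraries and the abundant ones of day 14 were thus mostly given to the same allele. How much of the day 0 Xist RNA came from feeder cells was not tested.

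Tsix (103431517 to 103484957, plus strand) had the opposite balance, with 25.8% and 37.4% 129 in WT and 18.6% and 25.1% in 6A (log2 ratio -1.39 ± 0.20, 533 reads). All 4 libraries were below 50%, and they differed among themselves more than those of Xist. The spans of both genes overlap on opposite strands and the sources used here do not state whether counting used strand, so the reads of their shared stretch cannot be told apart. Rlim, which encodes the ubiquitin ligase that promotes Xist expression, was also read more from CAST, with 41.9%, 39.6%, 39.6% and 41.0% 129 in the 4 libraries (log2 ratio -0.56 ± 0.08, 7926 reads). Chic1, a gene near Xist, was read more from 129 (57.2% to 65.1%, log2 ratio 0.69 ± 0.12). Ftx, a non-coding activator of Xist, was at 50.4% and was not called.

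Among the single genes with the largest ratios, Rpl39, which encodes a protein of the large ribosomal subunit, had 99.9% 129 reads (4614 reads, 99.7% to 100% per library, log2 ratio 9.73 ± 0.20). The other genes of the ribosomal and translation list spread over a wide range. Rps4x (102184941 to 102189394, minus strand), for a protein of the small subunit, had 86.7% and 83.3% in WT and 85.8% and 88.1% in 6A (19215 reads, log2 ratio 2.62 ± 0.08). Rpl10 stood at 65.5%. Eif2s3x, the gene of a translation initiation factor subunit, was read more from CAST, with 34.0% and 29.98% 129 in WT and 31.5% and 25.5% in 6A (log2 ratio -1.22 ± 0.09). Eif1ax, another initiation factor gene, was at 48.8% and was not called. In this list of 7 genes, 3 were called for 129, 1 for CAST and 3 not at all, with a median of 48.8%. With chromosome 13 as zero point 3 were called for 129 and 4 for CAST, Eif1ax among the latter (log2 ratio -0.40). Ribosomal protein genes have many near-identical processed copies elsewhere in the genome, so how their reads were placed is uncertain.

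Pgk1 (106187100 to 106203699, plus strand), which encodes the glycolytic enzyme phosphoglycerate kinase, was at the other extreme. Its 129 share was 2.34% and 3.64% in WT and 4.21% and 1.95% in 6A (2394 reads, log2 ratio -5.00 ± 0.15). CAST reads of Pgk1 stood at 32.9 to 58.1 CPM and 129 reads at 0.90 to 2.17 CPM, so the allele ranges were far apart in every library. At day 14 the 129 share was 0.495% of 2220 reads. Pgk1 also has processed copies in the genome.

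**Figure D2:**
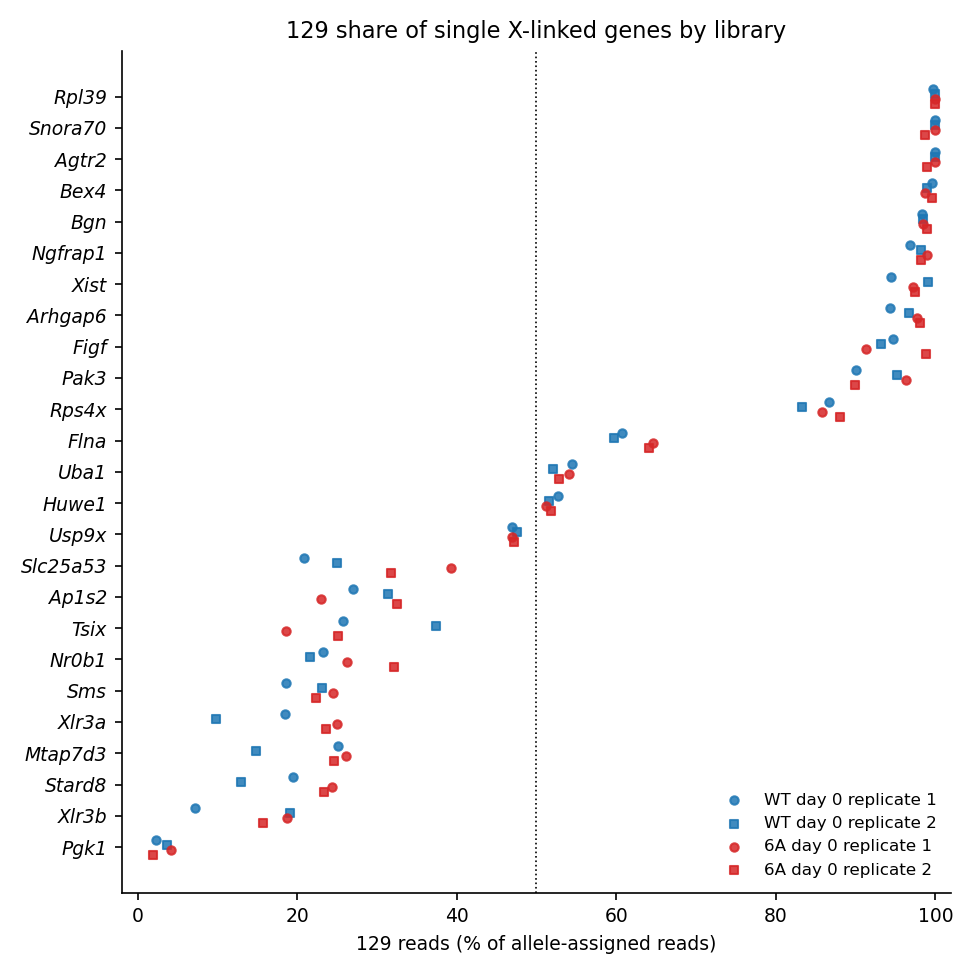
Share of 129 reads (%, horizontal axis) in each of the 4 day 0 libraries, circles for replicate 1 and squares for replicate 2. The genes are the 10 called ones with the largest ratio on each side and the 5 X-linked genes with the most allele reads. The largest ratios were taken among genes with at least 200 allele reads, passing over predicted genes, so genes with fewer reads and larger ratios are not shown. The libraries of Pgk1 (1.95% to 4.21%) and Rpl39 (99.7% or more) lie close together, those of Tsix (18.6% to 37.4%) and Slc25a53 (20.8% to 39.3%) lie farther apart, and the dotted line marks 50%.

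Other genes read mainly from CAST included Sms, for the polyamine enzyme spermine synthase, with 18.5% and 23.1% 129 in WT and 24.5% and 22.4% in 6A (log2 ratio -1.80 ± 0.10, 3297 reads). Nr0b1 (86191764 to 86195947, plus strand), which encodes the nuclear receptor Dax1 of the pluripotency network, had 23.3% and 21.6% in WT and 26.3% and 32.2% in 6A (log2 ratio -1.53 ± 0.09, 4446 reads). Stard8, a GTPase-activating protein gene, had 12.95% to 24.3% per library, and Mtap7d3, a microtubule-associated protein gene, 14.9% to 26.2%. Ap1s2, for a subunit of a clathrin adaptor, had 23.0% to 32.6%. Slc25a53, a mitochondrial carrier gene, had 20.8% and 25.0% in WT and 39.3% and 31.7% in 6A from 200 reads, and its call was lost with DESeq2 (adjusted p = 0.062). In each of these 6 genes all 4 libraries were below 50%.

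In the ubiquitin pathway, Huwe1, for a large ubiquitin ligase and the member with the most allele reads (20353), had 52.7%, 51.5%, 51.1% and 51.8% in the 4 libraries (log2 ratio 0.10 ± 0.08, edgeR adjusted p = 0.19). With chromosome 13 as zero point its ratio turned to -0.22 and was called for CAST (edgeR adjusted p = 0.0030). Usp9x, for a deubiquitinase, lay slightly on the CAST side (46.9% to 47.6%, log2 ratio -0.16 ± 0.08, edgeR adjusted p = 0.038). Uba1, for the enzyme that starts the ubiquitin cascade, lay slightly on the 129 side (52.0% to 54.4%, log2 ratio 0.19 ± 0.08, edgeR adjusted p = 0.016), a direction that turned when chromosome 13 set the zero point (log2 ratio -0.13). DESeq2 called neither Usp9x nor Uba1 (adjusted p = 0.086 and 0.064). Over the ubiquitin list, 1 of 15 genes was called for 129 and 4 for CAST, with a median of 50%, or 0 and 7 with chromosome 13 as zero point. Klhl13, a substrate adaptor of a ubiquitin ligase that restrains the exit from pluripotency in cells with both X chromosomes, was among those 4, at 33.9% and 31.8% in WT and 39.6% and 41.1% in 6A (log2 ratio -0.80 ± 0.08).

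Of 32 chromatin and transcription genes, 12 were called for 129, 0 for CAST and 20 not at all, with a median of 53.1%. Their 12 calls for 129 are a share near the 34.1% of all X-linked genes, whose median was 53.0%. That direction is relative to the zero point, since 5 were called for 129 and 11 for CAST with chromosome 13 set to equal. Nono, for a paraspeckle protein, had 66.1%, 66.6%, 71.4% and 70.4% (log2 ratio 1.13 ± 0.09) and was above 50% under both zero points. Kdm5c, for a histone H3K4 demethylase that escapes X inactivation, had 55.1% to 59.7% (log2 ratio 0.44 ± 0.08), a call that was lost with chromosome 13 as zero point (log2 ratio 0.12). Atrx, a chromatin remodeller gene, and Hcfc1, a transcriptional cofactor gene, stood at 49.1% and 49% and were not called, but were called for CAST with chromosome 13 as zero point (log2 ratios -0.40 and -0.38).

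Metabolic genes were called for 129 in 12 of 28 cases and for CAST in 3, with a median of 51.3%, where 34.1% and 15.1% of all X-linked genes were so called. With chromosome 13 as zero point the numbers were 8 and 14. Slc25a5, for a mitochondrial ADP and ATP carrier, had 70.7% and 62.5% in WT and 71.3% and 72.4% in 6A (log2 ratio 1.18 ± 0.09). Idh3g, for a Krebs cycle enzyme subunit, Prps1, for phosphoribosyl pyrophosphate synthetase, and Pola1, for the catalytic subunit of DNA polymerase alpha, were at 51.2%, 51.3% and 49.7%, none called with the reads as they stand and all for CAST with chromosome 13 as zero point (log2 ratios -0.26, -0.24 and -0.34). Hprt, the purine salvage enzyme gene, was at 58.2% (56.6% to 59.0%). RNA-binding protein genes had 3 calls for 129, 2 for CAST and 9 not called among 14, and the numbers with chromosome 13 as zero point were 2 and 10. Ddx3x, an RNA helicase gene, was at 52.4% and Dkc1, for the pseudouridine synthase dyskerin, at 47.6%, neither called. Rbm3, a cold-inducible RNA-binding protein gene, was at 47.0% and was called for CAST (log2 ratio -0.18 ± 0.08, edgeR adjusted p = 0.030), which DESeq2 did not call (adjusted p = 0.25).

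Genes of pluripotency and X dosage had 2 calls for 129 and 3 for CAST among 7 (median 49.3%). The 3 were Nr0b1, Klhl13 and Klf8, a transcription factor gene at 45.4% that DESeq2 did not call (adjusted p = 0.20). Tfe3, another transcription factor gene, was called for 129 at 53.7% (log2 ratio 0.22 ± 0.10), a call that was lost with DESeq2 (adjusted p = 0.26) and a direction that turned with chromosome 13 as zero point (log2 ratio -0.10). Dusp9, for the phosphatase that dampens MAP kinase signalling in cells with both X chromosomes, had 53.8% and 45.03% in WT and 48.6% and 52.9% in 6A and was not called. Genes listed as escaping X inactivation in some cell types had 6 calls for 129 and 2 for CAST among 14 (median 51.4%), or 4 and 6 with chromosome 13 as zero point. Kdm6a, a histone H3K27 demethylase gene, was at 50.4% and was not called.

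**Figure D3:**
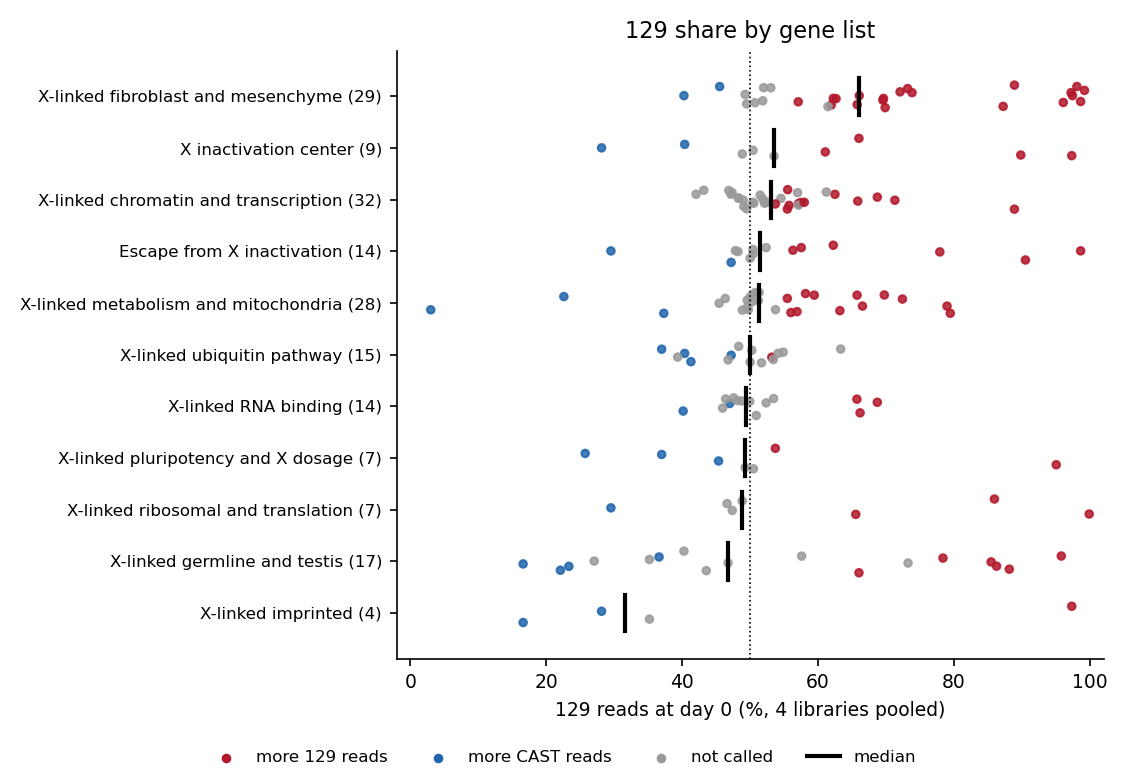
Share of 129 reads (%, horizontal axis, 4 day 0 libraries pooled) of each measured X-linked gene in 11 gene lists, colored by call, with the median of each list as a black bar and its number of genes in brackets. The fibroblast and mesenchyme list has the highest median (66.1%) and the imprinted list of 4 genes the lowest (31.7%), while the other medians lie between 46.8% and 53.5%.

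X-linked genes with high expression in fibroblasts and mesenchyme stood to the 129 side. Of 29, 20 were called for 129, 2 for CAST and 7 were not called, where 34.1% of all X-linked genes were called for 129 and 15.1% for CAST. Their median was 66.1%, against 53.0% over all 405 genes, and by library it was 62.9% and 64.7% in WT and 70.4% and 69.9% in 6A. With chromosome 13 as zero point 18 were called for 129 and 6 for CAST. Bgn (73483602 to 73495933, plus strand), which encodes the matrix proteoglycan biglycan, had 98.3% and 98.5% in WT and 98.5% and 98.9% in 6A (6525 reads, log2 ratio 6.12 ± 0.13). Col4a5, for a basement membrane collagen, had 97.4% of 117 reads and Arhgap6, a GTPase-activating protein gene, 97.2% of 288. Flna, for the actin cross-linker filamin A, had 60.7% and 59.8% in WT and 64.7% and 64.1% in 6A (19046 reads, log2 ratio 0.73 ± 0.08). Msn, for the membrane linker moesin, had 65.0% to 74.2%. Plp2, a membrane protein gene, was at 52.0% and was not called, while Gpc3, for the heparan sulfate proteoglycan glypican 3, lay on the CAST side (45.5%, log2 ratio -0.26 ± 0.11), a call that was lost with DESeq2 (adjusted p = 0.35).

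For several X-linked genes read mainly from 129 at day 0, on this list and outside it, the allele with most of the reads differed at day 14. A low 129 share at day 14 was not particular to these genes. Over the 378 members with at least 20 allele reads at day 14 its median was 12.2%. Bex4 and Ngfrap1, which are on the list, kept most of their reads on 129 at day 14. Whether the day 0 reads came from the stem cells or from feeder cells was not tested. Reads of the 129 allele of Bgn stood at 95.1 and 99.0 CPM for WT and 134 and 157 for 6A at day 0, and at 0.71 to 3.19 CPM in the 4 libraries of day 14. Reads of its CAST allele stood at 1.51 to 2.09 CPM at day 0 and at 62.2 and 64.7 CPM for WT and 23.5 and 29.4 for 6A at day 14. The allele with more reads was thus the opposite one at day 14, and the ranges of the days did not overlap for either allele. Arhgap6 showed the same, with 3.83 to 6.76 CPM of 129 reads at day 0 and 10.6 to 12.9 CPM of CAST reads at day 14, where its 129 share was 1.89%. Outside the list, Agtr2, for an angiotensin receptor, had 99.6% of 454 reads from 129 at day 0 and 0 of 19 at day 14. A count of 0 in so few reads sets only a loose limit. Figf, for a lymphatic growth factor, went from 94.6% to 9.23% and Pak3, a kinase gene, from 92.8% to 6.72%, and neither is on the list.

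The feeders are fibroblasts, so the same cell type's genes outside the X were read in the same way. Of 31 such genes with at least 50 allele reads at day 0, 10 had a 129 share of 30% to 70% at day 14, and 7 of these had at least 90% at day 0. Col1a1, for the main fibrillar collagen, went from 99.2% at day 0 to 51.2% at day 14, and Pdgfra, for a growth factor receptor of mesenchyme, from 98.5% to 51.1%. The other 21 were at 95% or more at day 14, and 7 of these were at 90% or less at day 0, a difference in the opposite sense. Col6a3 went from 77.4% to 99.1% and Fbln2 from 78.8% to 99.2%, while Fn1 (99.5% and 99.6%) and Col6a1 (99.4% and 99.5%) were at the top on both days. Mmp2, a gelatinase gene, stood at 25.7% and Thbs1, for a matrix thrombospondin, at 19.7% at day 0, against 99.3% and 98.9% at day 14, so the reads of fibroblast genes were not given to 129 throughout.

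In both 6A libraries of day 0, fibroblast marker levels, Y-linked reads and the 129 share of the X were above those of both WT libraries, and the part of RNA from feeder cells in the X-linked imbalance was not tested. In whole cultures, fewer cells of a type and less RNA per cell cannot be told apart. Without the fibroblast list the remaining 376 X-linked genes had pooled 129 shares of 53.1% and 52.0% in WT and 53.98% and 54.2% in 6A, and medians over genes of 50.5%, 50.8%, 52.7% and 54.1%. Those values were still above 50% in each library.

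The day 14 shares separated the genes at the 129 end into 2 kinds. Over the 378 members with at least 20 allele reads at day 14, the median 129 share there was 12.2% (quartiles 7.57% and 19.1%). Of the 15 such genes at 90% or more on day 0, 10 had 1.47% to 9.23% at day 14, Bgn, Col4a5, Arhgap6, Figf and Pak3 among them. The other 5 were Xist, Rpl39, Snora70, Bex4 and Ngfrap1, which kept 97.1% to 100%. Bex4 and Ngfrap1 are genes of the same small-protein family, with 99.2% and 98.1% at day 0 and 99.4% and 97.1% at day 14. Snora70 is a small nucleolar RNA that lies within the span of Rpl10, whose own share was 65.5% at day 0 and 38.5% at day 14. Rps4x stayed on the 129 side as well, at 76.9% of 7742 reads.

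Genes that were balanced at day 0 went to CAST at day 14. Of 233 genes with 40% to 60% at day 0, 180 had at most 20% at day 14. Of 21 genes at 30% or less on day 0, 14 had at most 20% at day 14, and none of the 21 was above 38.5%. In all, 16 of the 378 genes had 50% or more at day 14. Among genes that escape inactivation, Kdm5c stood at 38.6% and Utp14a, a ribosome assembly gene, at 39.8% at day 14, from 57.5% and 56.3% at day 0. Kdm6a stood at 38.9% from 50.4% and Ddx3x at 26.7% from 52.4%.

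**Figure D4:**
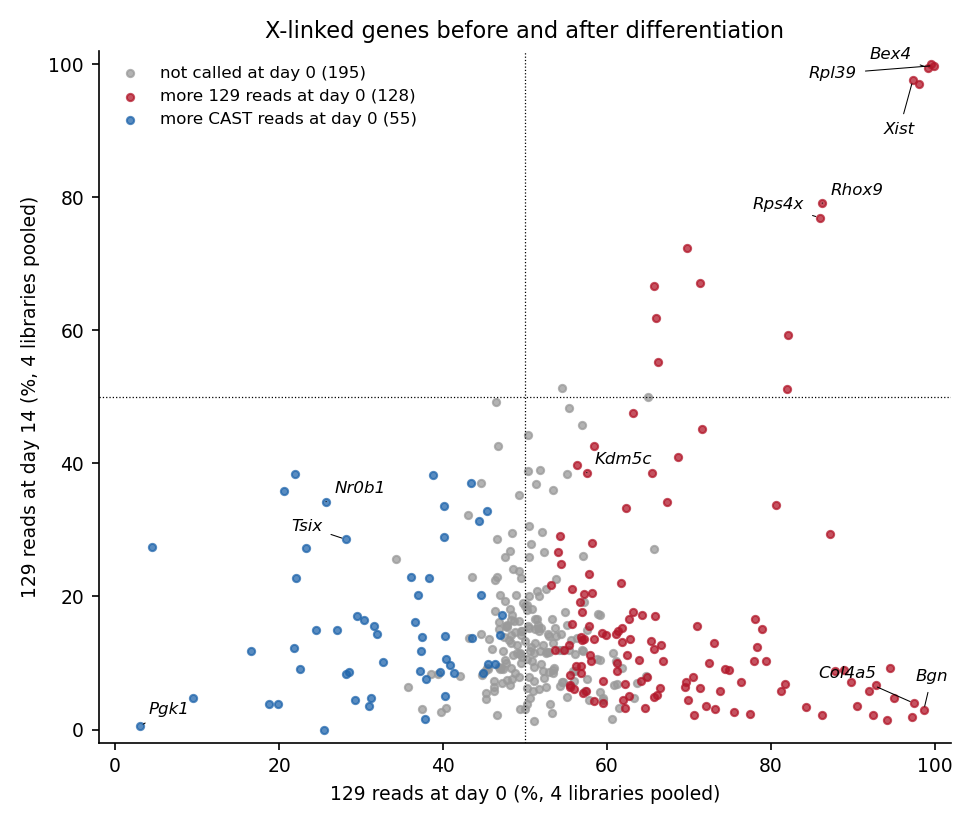
Share of 129 reads at day 0 (%, horizontal axis) and at day 14 (%, vertical axis), 4 libraries pooled each, for the 378 X-linked genes with at least 20 allele reads at day 14, colored by the call at day 0. Most genes lie low on the vertical axis (median 12.2%) whatever their day 0 share, and the genes at the right edge fall into 10 at 9.23% or less and 5 at 97.1% or more.

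Position along the chromosome gave no single side. In 20 Mb windows counted from the start of Xist, the median 129 share ran from 49.4% (60 to 40 Mb on the centromere side, 50 genes) to 56.9% (40 to 60 Mb on the other side, 56 genes). The first of these windows held 11 calls for 129 and 15 for CAST, and the second 23 and 3. Over all 405 X-linked genes, 34.1% were called for 129 and 15.1% for CAST. The counts per window use the reads as they stand and were not made with chromosome 13 as zero point. The window of 60 to 80 Mb beyond Xist (22 genes) had a median of 54.8%, with 9 calls for 129 and 1 for CAST. On the centromere side the window of 80 to 60 Mb held only 17 genes, with 7 calls and 1. Genes of opposite balance lay close together in places. Xist and Tsix overlap on opposite strands, and the reads of their shared stretch cannot be told apart. Cxx1a (4.48% 129 of 134 reads) and Cxx1b (82.0% of 189 reads) are 2 near copies of a retrotransposon-derived gene whose reads may be split between them. Cxx1a and Cxx1b were picked after their values were seen.

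**Figure D5:**
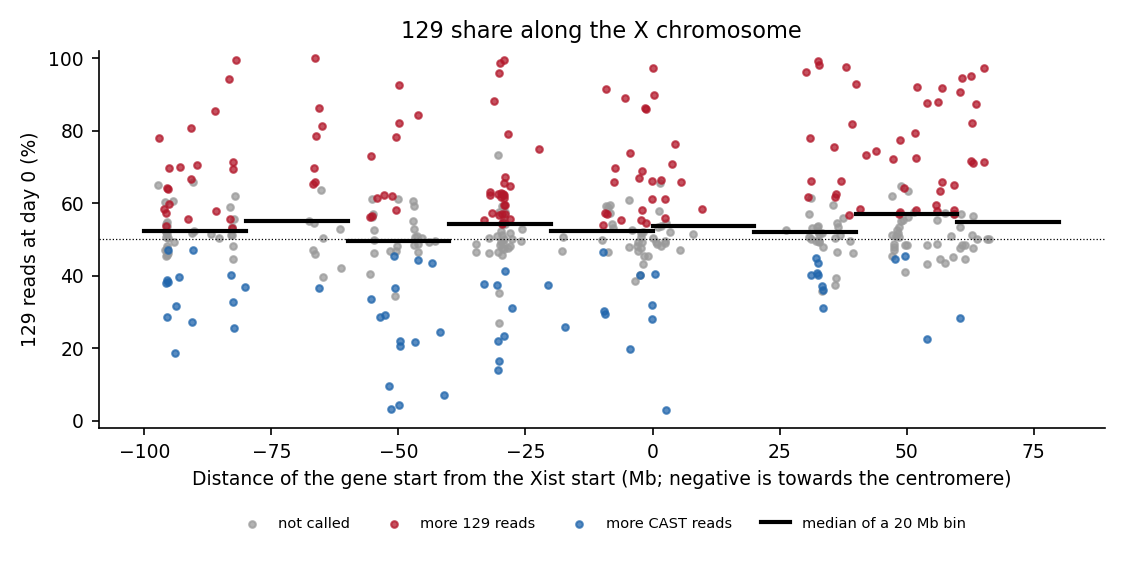
Share of 129 reads at day 0 (%, vertical axis) of 404 X-linked genes against the distance of the gene's start from the start of Xist (Mb, horizontal axis), colored by call, with the median of each 20 Mb window as a black bar. The bars stay between 49.4% and 56.9%, and genes called for either allele occur on both sides of Xist.

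The genotypes did not differ by the test in how the X alleles were used. For the difference of the 129 to CAST ratio between 6A and WT, edgeR called none of the 405 genes after adjustment, 10 of all 11604 genes (0.0862%) and 1 gene of chromosome 13 (0.22%). Without adjustment 22 X-linked genes (5.43%) had p under 0.05 in edgeR, close to the 6.25% of all genes, and DESeq2 gave 0 both with and without adjustment. The smallest edgeR adjusted p was 0.43, for Klhl13 (log2 difference 0.47 ± 0.17). Nr0b1 had a similar difference (0.52 ± 0.19). Simulated data of the same size had most genes balanced, unlike the real data. There only 13% of genes with a log2 difference of 1 were recovered for this contrast, against 80% for the 129 to CAST ratio itself. A difference of that size in a single gene could thus be missed.

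All 22 genes with an unadjusted p under 0.05 had a higher 129 share in 6A, as did 23 of 25 on chromosome 13, but only 289 of 725 over all genes. Estimates were above 0 for 284 of the 405 X-linked genes (median log2 difference 0.16) and for 269 of the 454 genes of chromosome 13 (median 0.06). Summed over genes, the 129 share of the X was 1.86 points higher in 6A by pooled reads and 2.85 points higher by medians, and both 6A libraries were above both WT libraries. On chromosome 13 the same differences were 1.45 and 0.90 points. The exact permutation p was 0.333 for each, the smallest that 2 libraries against 2 allow. In the fibroblast list 27 of 29 estimates were above 0, with a median of 0.32, and without that list the median of the X was 0.16. Y-linked reads were 1.63 times higher in 6A, and their part in the genotype difference was not tested.

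Germline and testis genes on the X had 6 calls for 129, 4 for CAST and 7 not called among 17, with a median of 46.8%. With chromosome 13 as zero point 6 were called for 129 and 8 for CAST, and over all X-linked genes 34.1% and 15.1% were called. Most had under 300 reads and several belong to families of near-identical copies (Xlr3, Xlr4, Xlr5, Rhox, Magea), whose reads may be split among copies. Xlr3a had 18.5% and 9.86% 129 in WT and 25.0% and 23.6% in 6A, and Xlr3b 7.14%, 19.0%, 18.7% and 15.7%. Tktl1, a transketolase-like gene, was also on the CAST side (23.3%). Efhc2, a ciliary protein gene, was on the 129 side with 86.2% and 91.2% in WT and 80.3% and 88.3% in 6A. Scml2, for a germline Polycomb-associated protein, and Usp26, a deubiquitinase gene of testis, were at 43.6% and 46.8% and were not called. Tex11, a meiosis gene, was at 40.3% and Magea8 at 57.6%, neither called. Of the others, Tsx (66.0%), Rhox1 (78.4%), Rhox9 (86.3%), Magea4 (88.1%) and Xlr5a (95.8%) were called for 129 and Rhox6 (36.6%) for CAST, while Xlr3c (27.1%), Xlr4a (73.2%) and Xlr4c (35.2%) were not called. DESeq2 called neither Tsx nor Rhox6 (adjusted p = 0.13 and 0.45).

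For several genes of that list the reads of both alleles were more numerous in 6A than in WT. Scml2 had 2.22 ± 1.495 CPM of 129 reads in WT and 9.94 ± 1.32 in 6A (SD, n = 2 each), and 2.17 ± 0.447 and 13.9 ± 0.165 CPM of CAST reads. The ratio of 6A to WT was 4.48 for its 129 reads and 6.39 for its CAST reads. The ratios were 8.78 and 4.69 for Usp26, 5.52 and 7.53 for Efhc2, and 5.40 and 2.94 for Xlr3a. They rest on few WT reads of 129 and CAST, 21 and 38 for Usp26, 56 and 7 for Efhc2, and 17 and 108 for Xlr3a. The levels of 6A against WT were not tested here. Tex11 was nearer to equal, at 1.396 and 1.504, and Rhox6, a homeobox gene, at 0.95 and 0.81. The difference between the alleles in these ratios was not called for any of the 17 genes by edgeR (Scml2 adjusted p = 0.94, Xlr3a adjusted p = 0.77).

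Of the 4 measured imprinted genes, Xlr3b and Tsix were called for CAST and Xist for 129, while Xlr4c, with 54 reads and none in WT replicate 1, was not called (median of the list 31.7%). The labels do not say which strain was the mother, so parent of origin and strain cannot be told apart for these genes.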

How the data were processed

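Allele counts came from total RNA sequencing of 4 day 0 and 4 day 14 libraries. The deposited tables hold raw counts per gene of all reads and of reads given to each genome, whole numbers per the file headers and values. The submitters' processing notes name cutadapt 1.4.2, STAR 2.7.10a and mm10. The sources used here do not name the counter, its strand setting, the annotation or the method of allele assignment, on which a 129 to CAST ratio depends. Positions are from GENCODE mouse release M21 on the same build, where 404 of 405 symbols matched.

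Each library entered edgeR 4.0.16 (R 4.3.3) as a 129 and a CAST column with the same offset, its total of allele reads, without TMM, so that ratios stay ratios of reads. The quasi-likelihood model had library as a block and an allele term per genotype (2 residual degrees of freedom), and was fitted to all 11604 genes with at least 50 allele reads. SE is the absolute log2 ratio divided by the square root of the F statistic. The model was tested on simulated data, where 80% of 200 genes with a log2 ratio of 1 were recovered with 4 false calls. Alternatives covered DESeq2 1.42.0, scaling, filters, terms and libraries left out. CPM are counts scaled to a library's total count. P-values concern only these libraries. Those of edgeR and DESeq2 use a spread per gene that was moderated over all genes fitted.

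The members and lists were chosen with earlier results of these data known. Named genes are the 10 largest and 10 smallest called ratios with at least 200 reads, passing over predicted genes, the 5 genes with the most reads, Xist and Tsix, up to 4 genes per list by reads, and the germline list. Others were added after their values were seen: Ftx, Rpl10, Hprt, Dusp9, Kdm6a, Utp14a, Col4a5, Gpc3, Cxx1a, Cxx1b, Col1a1, Pdgfra, Mmp2 and Thbs1. Some named members are not reported here.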

Additional observations from a re-analysis of the deposited data

How the results depend on the processing

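The number of X-linked genes called for 129 (138) and for CAST (61) moved with the scaling and the tool. DESeq2 gave 78 and 26, TMM factors per allele column 17 and 361, centring on the autosomal median 7 and 381, centring on the chromosome 13 median (chosen after seeing the data) 90 and 148, and a minimum absolute log2 of 1 gave 69 and 32. The first 2 centrings lowered the median log2 ratio by 2.41 and 4.32, because most autosomes were read mainly as 129, and left 4.50% and 1.804% of calls on the 129 side. Autosomal centring turned Figf (-0.26) and Pak3 (-0.61) and ended the call of Arhgap6 (0.70, adjusted p = 0.28), and DESeq2 ended that of Slc25a53 (-1.30, adjusted p = 0.062). The other 256 checks of the 20 genes named for their large ratios kept direction and call. Leaving out each library gave 100 to 141 calls for 129 and 45 to 60 for CAST. No filter gave 141 and 65, and at least 200 reads 105 and 43. No X-linked gene was called for the genotype difference in any alternative run.

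The pooled 129 share of 54.7% became 52.6% as the median over genes, 53.3% without the fibroblast list and 53.5% without the 10 genes with the most reads, and 54.3% to 55.1% without each library. List medians moved beyond their spread for ribosomal genes without a filter (65.5%) and germline genes with at least 200 reads (40.1%). Without each library the escape list ranged from 51.1% to 54.1% and the ubiquitin list from 48.0% to 49.6%.

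A fit with the replicate block (allele by replicate number) called 130 and 58 genes. Deviations of same-numbered libraries had a correlation of -0.07 over genes with at least 500 reads, so the numbers were not taken as pairs, and the block changed no call of the genotype difference.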
